A study of Mus musculus with 3 samples.

Results

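Cd209a dendritic cells were studied here in leukocytes sorted from mouse hearts on the surface protein CD45 and sequenced with 10x Genomics 3' chemistry. A cell counted as a member when it had at least 1 transcript molecule (UMI) of Cd209a, at least 0.5% of its UMIs from the MHC class II genes H2-Aa, H2-Ab1 and H2-Eb1, at most 4 UMIs of the complement genes C1qa, C1qb and C1qc together, at most 1 UMI of Xcr1 and Clec9a together, and none of Cd79a, Cd3d, Cd3e or Cd3g. The members were thus chosen by their own counts of these 13 genes, whose levels are given only as a description. Cells with under 200 genes or over 10% mitochondrial UMIs were dropped, and 331 of the 32215 kept were members. They came from 3 libraries, 1 per group, of C57BL/6J mice aged 8 to 9 weeks: 68 members of 11105 kept cells in Sham, 109 of 8831 in MI and 154 of 12279 in MI-E. MI stands for myocardial infarction by the series title, while the labels do not expand MI-E. The surgery text, a ligation of the left anterior descending coronary artery, is attached to all 3 libraries, Sham included, so the labels separate the groups by name alone. How long after surgery hearts were taken, and how many went into a library, is not stated in these sources. No group has a replicate library, and no test or p-value was computed.

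Dendritic cells take up antigen in tissues, carry it to draining lymph nodes and present it to T cells on MHC molecules. Conventional type 1 dendritic cells carry Xcr1 and Clec9a and present antigen to CD8 T cells, while type 2 cells carry lectins such as Clec10a and Mgl2 and mostly present on MHC class II to CD4 T cells. In inflamed tissue, monocytes can take on many of the same genes, and Cd209a, a mouse relative of the human pathogen receptor DC-SIGN, is known from both kinds of cell. The gene lies on chromosome 8 from 3743397 to 3748984 on the minus strand in GRCm38.

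UMIs of the members were summed in each library and scaled by the members' own total to the usual CPM unit, so a CPM is a share of these cells' transcripts. That total was 440745 UMIs for Sham, 1032423 for MI and 1460747 for MI-E. Values in brackets are exact 95% intervals that cover counting error only, since UMIs from the cells of 1 library share that library. A median Sham member held 7127 UMIs, an MI member 8749 and an MI-E member 8543.5, and 12 of the 68 Sham members held fewer than 1500. Over all kept cells the medians were 2760, 9789 and 7494, so Sham was the shallow library. The libraries shared 26 to 45 cell barcodes in pairs, none of them a member's. A doublet caller marked 0, 0 and 6 members. Fewer cells of a state and less RNA per cell cannot be told apart in such sums.

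The counts the rule read were unequal between libraries. Cd209a had a median of 6.5 UMIs per Sham member and of 3 in the others, and 17, 36 and 34 members had exactly 1. Its summed level was 1425 CPM (Sham), 521 CPM (MI) and 494 CPM (MI-E). MHC class II took a median of 4.04%, 3.02% and 2.61% of a member's UMIs. Just inside that threshold, from 0.5% to 0.6%, were 3, 3 and 1 members, and just outside, from 0.4%, were 0, 0 and 1 cells. At the C1q threshold 1, 1 and 4 members had 4 UMIs, and 0, 0 and 2 cells had 5. Cells that failed the rule only for want of a Cd209a UMI were more numerous than the members, with 283, 314 and 525 cells.

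**Figure D1:**
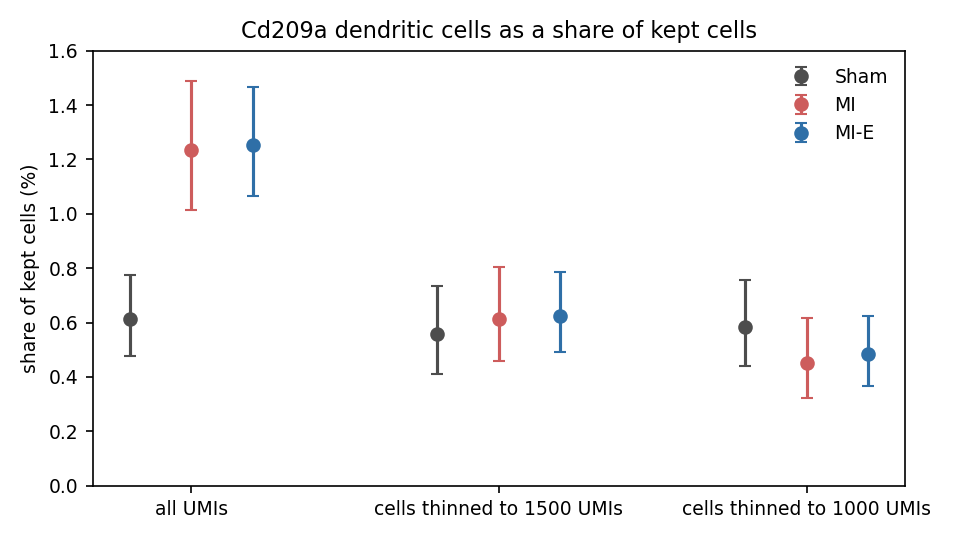
Share of kept cells that met the rule, in percent, for each library, with all UMIs and after each cell was thinned at random to 1500 or 1000 UMIs; bars are exact 95% binomial intervals. MI and MI-E lie above Sham with all UMIs, at 1.23% and 1.25% against 0.612%, and all 3 intervals overlap at 1500 UMIs.

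Cd209a dendritic cells made up 0.612% (0.476 to 0.776) of kept cells in Sham, 1.23% (1.01 to 1.49) in MI and 1.25% (1.06 to 1.47) in MI-E. The share was 2.02-fold (1.48 to 2.77) higher in MI than in Sham, and the ratio of MI-E to MI was 1.02 (0.790 to 1.31). The libraries also differed in depth, and the shares lay close together when the rule was applied again to thinned cells. When cells with at least 1500 UMIs were thinned to 1500 and the rule was applied again, the shares were 0.557%, 0.615% and 0.626%, from 49 of 8800, 52 of 8456 and 72 of 11502 cells. MI over Sham then gave a ratio of 1.10 (0.733 to 1.67), or 0.775 (0.5 to 1.19) at 1000 UMIs. Thinning left out 2305 kept cells in Sham and 375 in MI. Before thinning, 56, 109 and 154 of the same 8800, 8456 and 11502 cells met the rule. Thinning removes Cd209a UMIs, which were most numerous per member in Sham, so the thinned shares mix abundance with the Cd209a level. Among cells with at least 0.5% MHC class II UMIs, members were 1.06%, 10.5% and 11% in the same order, a population that held 6423, 1041 and 1396 cells. No lineage was left out of it, so B cells and C1q macrophages, the latter 2383, 536 and 364 cells, could count in it. These shares therefore also move with the numbers of those cells.

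Genes outside the rule were then set beside the label. Klrd1 and Tbc1d4 were named for these cells, and the lists chosen, with earlier results of the same data known. Their presence is therefore a description and no independent check. Klrd1, a lectin-like receptor known from natural killer cells and from some dendritic cells, stood at 284 CPM (Sham), 634 CPM (MI) and 436 CPM (MI-E). After each member was thinned to 1500 UMIs, 33.9%, 56% and 37.7% of members in Sham, MI and MI-E had a Klrd1 UMI, against 0.327%, 0% and 0.437% of B cells in the same libraries (unthinned, 58.8%, 83.5% and 81.8% of members). Tbc1d4, a regulator of vesicle traffic, stood at 68.1, 115 and 149.9 CPM in the same order. Type 1 dendritic cells held 146, 90 and 105 CPM of Tbc1d4, above the members in Sham, so it did not set the members apart from them. Clec10a, a galactose-binding lectin of type 2 dendritic cells, was found in 32.1%, 30.3% and 14.3% of thinned members and in at most 0.514% of thinned B cells. The 19 type 2 dendritic cell markers outside the rule summed to 2947, 3261 and 2699 CPM, against 2158, 1818 and 2335 CPM in type 1 dendritic cells and 957, 972 and 957 CPM in B cells. Ifi205, which was also listed as a type 1 marker, led the sums of type 1 dendritic cells at 591, 526 and 676 CPM. Cells that failed the rule only for want of a Cd209a UMI summed to 1272, 1685 and 1895 CPM. Each of the 19 had a UMI among the members of every library, as it also had among the neutrophils of MI and MI-E. Flt3, the growth factor receptor of conventional dendritic cells, was at 38.6, 32 and 24 CPM, below the 92.7, 90 and 102 CPM of type 1 dendritic cells. Ly6c2 monocytes held 6.21, 2.48 and 1.95 CPM of Flt3. Zbtb46, a transcription factor of conventional dendritic cells, was low at 20.4, 9.69 and 23.3 CPM. Type 1 dendritic cells, only 21, 24 and 26 cells, held 39.7, 5.45 and 14.1 CPM of Zbtb46, and Ly6c2 monocytes 1.24, 0 and 0.975 CPM.

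Markers of other leukocytes were present at unequal levels. Of 15 macrophage markers outside the rule, 13 to 14 were detected, and they summed to 957, 896 and 1414 CPM in Sham, MI and MI-E, below the 4702, 6145 and 6780 CPM found in B cells, which should lack them. Mertk was at 0 UMIs in Sham and MI-E and Lyve1 in Sham and MI. Monocyte markers, 12 to 14 of 14 detected, summed to 1609, 2526 and 4200 CPM, against 1342, 3211 and 3915 CPM in B cells and 10394 to 14538 CPM in Ly6c2 monocytes. Neutrophil markers, 7 to 11 of 13 detected, summed to 68.1, 118 and 1551 CPM, the last led by S100a9 at 829 CPM and S100a8 at 590.1 CPM, with Ly6g and Camp at 0 in every library. B cells of MI-E held 1660 CPM of the same list. Natural killer cell markers summed to 408, 59.1 and 47.9 CPM, led in Sham by Ccl5 at 247 CPM. The part of these transcripts in the results below was not tested.

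**Figure D2:**
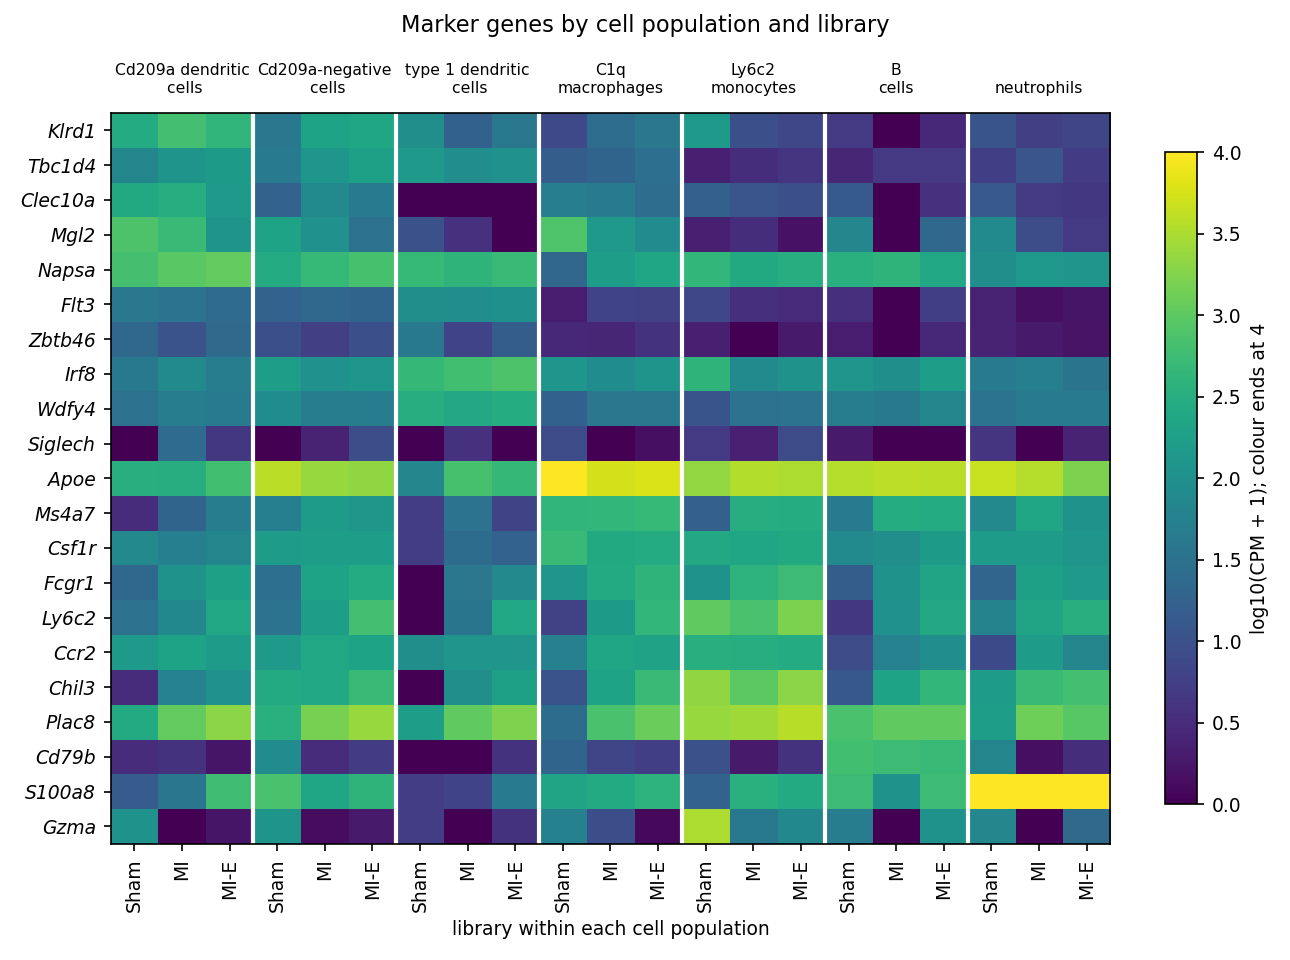
Levels of marker genes, as log10 of CPM + 1, in Cd209a dendritic cells and 6 other populations gated from the same libraries; each block of 3 columns is Sham, MI and MI-E. Klrd1 and Clec10a are bright in the first block, Irf8 and Wdfy4 in type 1 dendritic cells, Apoe in macrophages and Chil3 in monocytes.

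The members were set beside 4 populations cut from the same cells by other gates. This is a description and no test, because the gates were drawn on the same counts. Macrophages positive for C1q and high in MHC class II numbered 2383, 536 and 364 cells. Of 3799 genes with enough UMIs, 83 (2.18%) were at least 2-fold higher in members in all 3 libraries and 174 (4.58%) at least 2-fold lower. Klrd1 led the first set, at 43.4, 24.2 and 11-fold the macrophage level in Sham, MI and MI-E. H2-Oa and H2-DMb2, which tune peptide loading of MHC class II, were 34.9, 15 and 8.23-fold and 17.4, 9.95 and 4.49-fold higher. Napsa, an aspartic protease, and Itgb7, an integrin chain, were higher as well, Napsa by 33.4, 5.75 and 4.74-fold. Lower in members were Apoe, the lipid carrier, by 76.4, 17.7 and 9.55-fold. Ms4a7, a macrophage membrane protein, stood at 2.27, 18.4 and 49.3 CPM in members against 421, 440.4 and 471 CPM, the first of these 1 UMI. The monocyte attractants Ccl12 and Ccl7 and the anaphylatoxin receptors C5ar1 and C3ar1 were lower too, with C5ar1 at 15.9, 17.4 and 30.1 CPM in members against 499, 208 and 243 CPM.

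Type 1 dendritic cells, gated on Xcr1 and Clec9a, numbered 21, 24 and 26 cells, which limits the precision of this comparison. Against them 149 of 3592 genes (4.15%) were at least 2-fold higher in members in every library and 96 (2.67%) lower, or 175 lower without Sham. Clec10a had no UMI in the type 1 cells of any library, and members were at least 19.9, 37.2 and 17.4-fold higher when the empty side was set to 3 counts. Tmem176b, a membrane channel protein of dendritic cells, was 25.3, 13 and 19.4-fold higher, and S100a4, a calcium-binding protein, 6.71, 21.6 and 14.3-fold higher. Irf8, the transcription factor that type 1 dendritic cells require, was 11.2, 7.51 and 16.1-fold lower in members. Wdfy4, needed for their cross-presentation, was 9.59, 5.4 and 7.24-fold lower. Txndc16, a thioredoxin-domain protein, stood at 11.3, 11.6 and 3.42 CPM in members against 587, 818 and 342 CPM.

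Ly6c2 monocytes low in MHC class II numbered 150, 572 and 1969 cells. Of 3826 genes, 92 (2.4%) were higher in members and 236 (6.17%) lower. Ccr7, the receptor that guides dendritic cells to lymph nodes, was 17.4, 104 and 57.6-fold higher and Cd74, the invariant chain, 81, 20.2 and 24.3-fold higher. Mgl2 stood at 756, 506 and 118 CPM in members against 1.24, 2.29 and 0.548 CPM, the Sham monocytes having 1 UMI. Chil3, a chitinase-like protein, stood at 2.27, 59.1 and 103 CPM in members against 2134, 979 and 1983 CPM, with 1 UMI in Sham members. Thbs1 (thrombospondin 1) was 41.9, 17.7 and 13.7-fold lower and Hp (haptoglobin) 29.3, 12.6 and 18.2-fold lower. The Sham monocyte gate also held natural killer transcripts, 9276 CPM in sum and Klrd1 at 139 CPM, so its ratios for such genes are not those of monocytes alone. Without Sham, 191 genes were higher and 378 lower.

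Cells that met every part of the rule except Cd209a were the nearest population. Only 9 of 3734 genes (0.241%) were at least 2-fold higher in members in all 3 libraries and 45 (1.21%) lower. Mgl2 was 3.66, 4.92 and 3.92-fold higher, Clec10a 15.5, 3.96 and 3.45-fold higher and H2-Oa 2.61, 2.34 and 2.03-fold higher. Apoe was 12.1, 7.83 and 3.49-fold lower. These cells had a median of 715 UMIs in Sham against 8092.5 in MI and 7739 in MI-E, and leaving out MI-E gave 17 genes higher and 73 lower, leaving out Sham 80 lower. Klrd1 lay at 38.3, 206 and 227 CPM in them and Tbc1d4 at 42.5, 126 and 188 CPM, so both named markers were also carried by cells without a Cd209a UMI. Tbc1d4 was higher in these cells than in members in MI and MI-E, where members held 115 and 149.9 CPM.

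Next, the libraries were compared within the members. Of 3545 genes with a mean of at least 25 CPM, 452 (12.8%) were at least 2-fold higher in MI than in Sham and 140 (3.95%) at least 2-fold lower. The median log2 ratio over all 3545 genes was 0.24. With edgeR's TMM scaling this median was 0.07 and the counts were 311 and 219, so the share of higher genes among those apart was 58.7% in place of 76.4%. Between MI-E and MI, 57 genes (1.61%) were higher and 47 (1.33%) lower, with a median of 0.03. Between MI-E and Sham, 452 (12.8%) were higher and 145 (4.09%) lower, with a median of 0.26, or 315 and 207 with TMM scaling and 60.3% in place of 75.7% higher. MI over Sham and MI-E over Sham share the Sham library, and MI over Sham and MI-E over MI share MI, so these comparisons are not independent of each other.

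Interferon-induced genes, which cells switch on to resist virus, had the largest median ratio of MI to Sham among the 24 lists of dendritic cell functions and cell states. Of 25 measured, 19 were at least 2-fold higher in MI than in Sham and none lower, with a median log2 ratio of 1.75 against 0.24 for all genes. Between MI-E and MI, 9 of 25 were higher and none lower, with a median of 0.73. Between MI-E and Sham, 23 of 25 were higher, with a median of 2.45. The shares of all genes that were higher were 12.8%, 1.61% and 12.8% in these comparisons, in the same order. Setting the 2 genes without a Sham UMI to 3 counts left the medians at 1.75 and 2.45. Other populations of the same libraries were also higher in MI for these 25 genes, with medians for MI over Sham of 1.62 in B cells, 1.90 in type 1 dendritic cells, 1.18 in C1q macrophages and 0.67 in Ly6c2 monocytes. For MI-E over MI these medians were 0.49, 0.59, 0.47 and 0.23. Of the 19 genes higher in MI, 12 lay above the B cell level of that library, and of the 9 higher in MI-E than in MI, all 9 did.

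Isg15, a ubiquitin-like modifier, was measured at 202 CPM (Sham), 326 CPM (MI) and 674 CPM (MI-E), a step of 2.07-fold (1.82 to 2.34) from MI to MI-E. Irf7, the transcription factor that amplifies type I interferon production, stood at 18.2, 99.8 and 334 CPM, higher at each step, 5.5-fold (2.69 to 13.1) from Sham to MI and 3.35-fold (2.7 to 4.18) from MI to MI-E. B cells held 25, 132 and 288 CPM of Irf7. Zbp1, a sensor of Z-form nucleic acid, followed with 18.2, 99.8 and 283 CPM, above the B cell levels of 7.98, 80.4 and 118 CPM. Bst2, which tethers budding virus, stood at 166, 559.9 and 685 CPM, and was higher in MI than in Sham by 3.38-fold (2.65 to 4.37). Ifitm3, which blocks viral entry, was the most abundant of the list at 2670.5, 4404 and 6246 CPM. Rsad2 had 0, 100 and 134 UMIs, but 76% of the MI UMIs came from 1 cell, so that level is mostly that of 1 cell. In Ifit3, with 0, 32 and 91 UMIs, 1 cell gave 50% of those in MI.

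The promoters of the interferon-induced genes were read from RefSeq (GRCm38.p6, 250 bases before to 50 after each start) for 2 copies of GAAA separated by any 2 bases, the repeat to which interferon regulatory factors and the ISGF3 complex bind, on both strands and with overlapping matches allowed. The table held 19 of the 25 genes, and 11 of these (57.9%) had a match in at least 1 window, against 140 of 2841 (4.93%) measured genes of the whole table and 1079 of 27025 (3.99%) genes in all. Among the genes of the list at least 2-fold higher in MI than in Sham 7 of 13 had a match, and among those higher in MI-E than in MI 2 of 5. A match is a description of the letters. Stretches with at least 2 nearby matches lying wholly before the start site are shown 5′ to 3′ on the gene's strand, with the matches in capitals, to show how the repeat occurs where there is more than 1 match:
Isg15: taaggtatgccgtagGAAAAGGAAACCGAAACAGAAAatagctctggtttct
Bst2: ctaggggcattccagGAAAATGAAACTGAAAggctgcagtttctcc
Oas1a: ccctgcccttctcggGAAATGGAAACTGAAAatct
Ifit3: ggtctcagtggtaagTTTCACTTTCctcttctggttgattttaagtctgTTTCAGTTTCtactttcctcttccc
In Isg15, Bst2 and Oas1a the matches overlap, while Ifit3 has 2 separate matches, both on the opposite strand. They lie at chr4:156200860-156200911 on the minus strand for Isg15, chr8:71537572-71537617 on the minus strand for Bst2, chr5:120907526-120907560 on the minus strand for Oas1a and chr19:34583358-34583431 on the plus strand for Ifit3. Oas1a, an enzyme that senses double-stranded RNA, was measured at 11.3, 48.4 and 69.8 CPM.

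**Figure D3:**
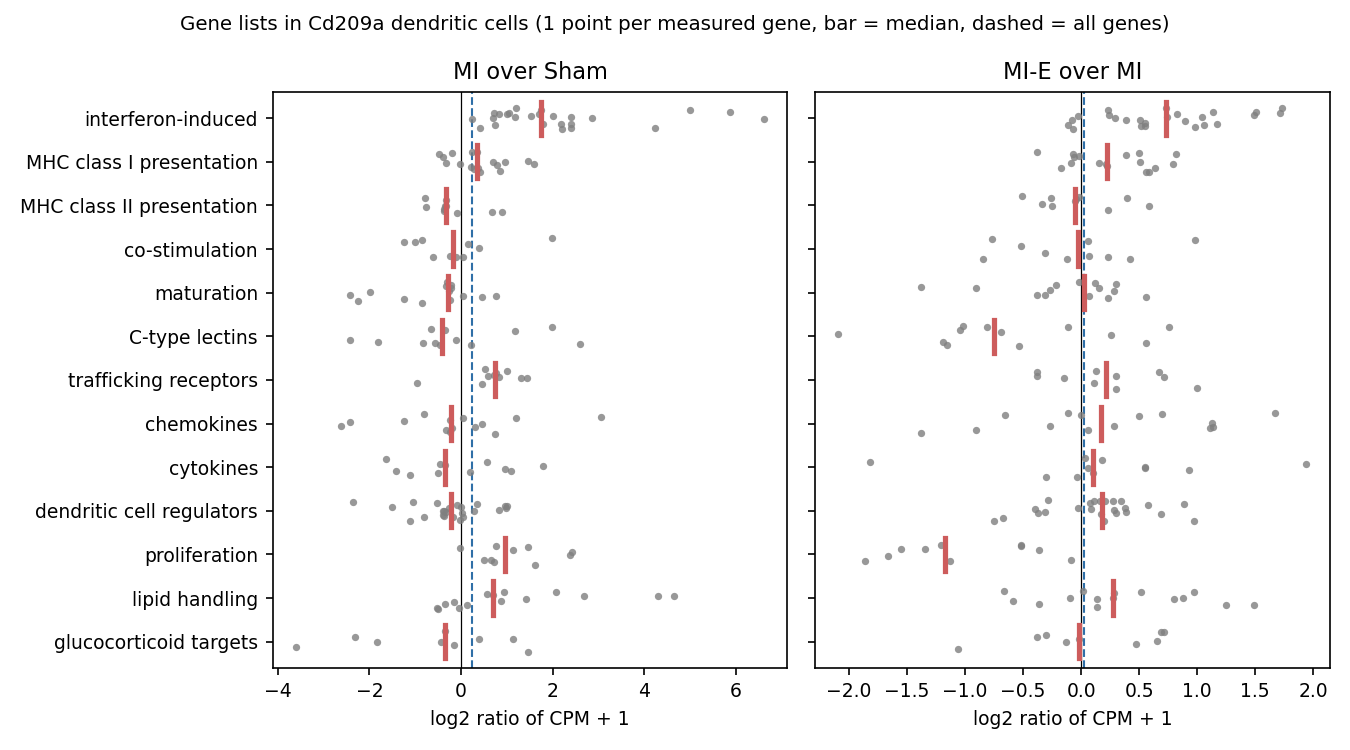
Log2 ratios of CPM + 1 in Cd209a dendritic cells for MI over Sham (left) and MI-E over MI (right), 1 grey point per measured gene of 13 lists; red bars are list medians and the dashed line the median of all genes. The interferon-induced list has medians of 1.75 and 0.73, and the proliferation list lies on opposite sides of 0, at 0.96 and -1.17.

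The genes furthest apart between MI and Sham included other interferon-induced ones. Ly6a, the stem cell antigen Sca-1 and an interferon-induced surface protein, stood at 4.54 CPM (Sham), 323 CPM (MI) and 921 CPM (MI-E). It was 71.1-fold (19.5 to 589) higher in MI than in Sham, where it had 2 UMIs, and 2.85-fold (2.53 to 3.23) higher again in MI-E. It was found in 2.94%, 64.2% and 94.8% of members, unthinned. B cells held Ly6a at 129, 245 and 504 CPM. C1q macrophages held it at 12.6, 335 and 838 CPM and Cd209a-negative cells at 55.3, 353 and 843 CPM, also higher at each step. Ifitm1, a relative of Ifitm3, stood at 97.6 CPM (Sham), 1948 CPM (MI) and 3042 CPM (MI-E), far above the 25.6, 43.8 and 132 CPM of B cells, and was 20-fold (14.8 to 27.7) higher in MI. Neutrophils carried Ifitm1 too, at 1589, 1298 and 2016 CPM. Cd209a-negative cells held it at 55.3, 792 and 1552 CPM and C1q macrophages at 19.9, 195 and 476 CPM, so it was higher at each step there as well. Flot1, a scaffold of lipid rafts, was 7.5-fold (3.53 to 19) higher in MI, and Pmepa1, a brake on TGF-beta signalling, 12.5-fold (4.75 to 46.6). Timp1, an inhibitor of matrix metalloproteinases, was 5.81-fold (3.06 to 12.4) higher, at 22.7, 132 and 123 CPM. The cathepsin Ctsl stood at 20.4, 137 and 151 CPM and Ms4a6d at 31.8, 207 and 205 CPM, below B cells of MI, which held 599 and 216 CPM. Ly6e, a relative of Ly6a, stood at 113, 679 and 991 CPM and Polr2f, an RNA polymerase subunit, at 25, 106 and 95.8 CPM, and B cells of MI again held more of both.

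Metallothioneins, small proteins that bind zinc and copper, lay in the other direction. Mt1 stood at 4290.5 CPM (Sham), 863 CPM (MI) and 412 CPM (MI-E), 4.97-fold (4.59 to 5.39) lower in MI than in Sham and 2.09-fold (1.89 to 2.33) lower again in MI-E. Mt2 stood at 199.7, 15.5 and 26 CPM. The C1q macrophages showed the same order for Mt1, at 5504, 1063 and 506 CPM, and B cells a smaller step at 621, 522 and 305 CPM. Trf, the iron carrier transferrin, was 7.58-fold (5.43 to 10.7) lower in MI, at 345, 45.5 and 39 CPM. C1q macrophages held Trf at 732, 93.5 and 116 CPM and Cd209a-negative cells at 200, 57 and 52.4 CPM, so both were lower in MI too. Batf, a transcription factor that cooperates with Irf4 in dendritic cells, was 5.21-fold (3.55 to 7.77) lower, at 202, 38.7 and 47.2 CPM against 23.3, 21.9 and 15.2 CPM in B cells. It was lower in MI too in C1q macrophages (121, 38.3 and 31.7 CPM) and in Cd209a-negative cells (72.3, 42.4 and 29.8 CPM). Wnt11, a secreted Wnt ligand, stood at 186, 37.8 and 69.1 CPM and was nearly absent from B cells, at 1.84, 0 and 0 CPM. Lmo1, a transcriptional cofactor, was 5-fold (2.96 to 8.72) lower in MI, and Marcksl1, an actin regulator, 4.76-fold (3.93 to 5.78). Lmna, a component of the nuclear lamina, was 4.63-fold (3.58 to 6.04) lower. In C1q macrophages Marcksl1 stood at 1007, 214 and 284 CPM and Lmna at 1064, 248 and 249 CPM, also lower in MI. Wnt11 went the other way there, at 3.68, 10.7 and 17.7 CPM. For Taf1d, 77.9% of the Sham UMIs came from 1 cell, and Ccl7 lay below its B cell level in every library.

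**Figure D4:**
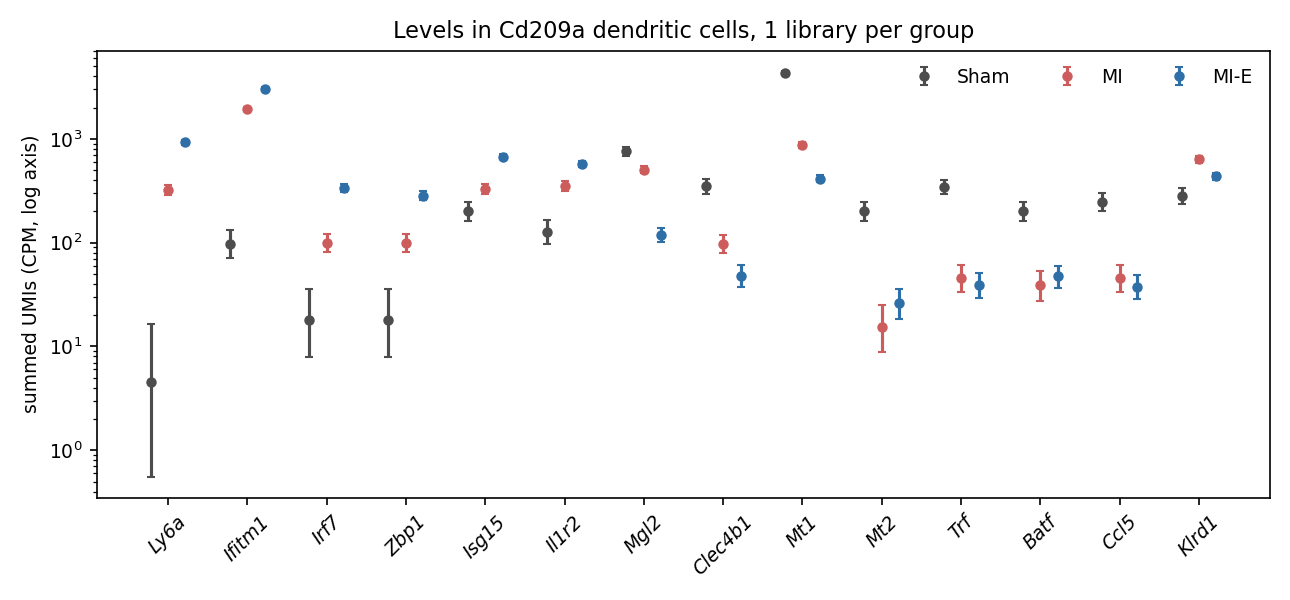
Summed level in CPM (log axis) of 14 genes in Cd209a dendritic cells of each library, 1 library per group; bars are exact 95% Poisson intervals of the counts. Ly6a, Ifitm1, Irf7, Zbp1, Isg15 and Il1r2 are higher at each step from Sham to MI-E, and Mgl2, Clec4b1 and Mt1 lower.

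C-type lectins, receptors for sugars on microbes and on self proteins, were lower in MI-E than in MI as a list. Of 12 measured, none was at least 2-fold higher in the MI-E library than in MI and 5 were lower, with a median log2 ratio of -0.75 against 0.03 for all genes. Between MI and Sham 3 were higher and 2 lower, with a median of -0.41. For all genes, 1.33% were lower in MI-E than in MI. Between MI and Sham 12.8% were higher and 3.95% lower, with a median of 0.24. The same list had MI-E to MI medians of -0.51 in Cd209a-negative cells and -0.17 in C1q macrophages. Mgl2, a galactose-type lectin, stood at 756 CPM (Sham), 506 CPM (MI) and 118 CPM (MI-E), a ratio of MI to MI-E of 4.29-fold (3.61 to 5.13). The same order held in C1q macrophages, at 795, 141 and 83.8 CPM, and in Cd209a-negative cells, at 206, 103 and 30.1 CPM. In Sham the macrophages thus held slightly more Mgl2 than the members. At 1500 UMIs per cell Mgl2 was found in 39.3%, 23.9% and 8.44% of members, so detection followed the same order. Clec10a, its closest relative, stood at 263, 304 and 147 CPM and was 2.07-fold (1.73 to 2.47) lower in MI-E than in MI. Clec4b1, a receptor known from dendritic cells, stood at 347, 97.8 and 47.9 CPM, 7.24-fold (5.42 to 9.75) lower in MI-E than in Sham. It was also lower at each step in C1q macrophages (160, 64.7 and 44.3 CPM) and in Cd209a-negative cells (157, 43.5 and 21.4 CPM). Clec4a2, an inhibitory receptor, and Cd302, an endocytic receptor, were 2.27-fold (1.59 to 3.26) and 2.36-fold (1.39 to 4.09) lower in MI-E than in MI. Cd209d, a relative of the gene that chose the members, stood at 56.7, 9.69 and 8.9 CPM. In the other direction, Clec4e (Mincle), a sensor of dead cells and mycobacteria, stood at 15.9, 101 and 171 CPM, but B cells held 20.4, 197 and 327 CPM. Clec4n (Dectin-2), a receptor for fungal mannans, stood at 59, 236 and 134 CPM, with B cells at 13.7, 87.7 and 154 CPM, so it exceeded them in Sham and MI only.

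MHC class II genes outside the rule were within 2-fold between MI and Sham, but their median there lay below that of all genes. Of 10 measured, none was 2-fold apart between MI and Sham or between MI-E and MI, with medians of -0.34 and -0.05 against 0.24 and 0.03 for all genes. Cd74 stood at 40012 CPM (Sham), 23551 CPM (MI) and 19734 CPM (MI-E) and was 2.03-fold (1.99 to 2.07) lower in MI-E than in Sham. Ctss, the protease that trims the invariant chain, went the other way at 1044, 1925 and 1861 CPM. Of 17 genes of MHC class I presentation, 2 were higher in MI than in Sham (Psmb9 and H2-M3, named after their values were seen), near the 12.8% of all genes, and 6 in MI-E than in Sham, none was lower, and the medians were 0.34 and 0.77. Psmb9 and Psmb8, immunoproteasome subunits, stood at 102, 283 and 266 CPM and 417, 809.8 and 945 CPM, above B cells in all 3 libraries. B2m, the light chain of MHC class I, stood at 976, 1253 and 1785 CPM.

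Co-stimulatory and maturation genes had medians under that of all genes in MI and MI-E compared with Sham. For all genes the medians were 0.24 and 0.26, with 12.8% higher in each comparison and 3.95% and 4.09% lower. Of 10 co-stimulation genes measured, 1 was higher and 2 lower in MI than in Sham, with a median of -0.18, and 1 was higher and 4 lower in MI-E than in Sham, with a median of -0.66. Cd83, a maturation marker that stabilises MHC class II, stood at 703 CPM (Sham), 386 CPM (MI) and 311 CPM (MI-E), and Cd40, the receptor through which T cells license dendritic cells, at 63.5, 26.2 and 27.4 CPM. Cd86, a ligand of CD28, was nearly level at 195, 165 and 221 CPM. Of 14 maturation genes measured, none was higher and 4 were lower in MI than in Sham, and 6 were lower in MI-E than in Sham, with medians of -0.29 and -0.70. Ccl5 was one of the 4, at 247, 45.5 and 37.7 CPM, but 47.7% of its Sham UMIs came from 1 cell. Marcks, an actin-binding protein kinase C substrate, stood at 639.8, 159.8 and 194 CPM. Ccr7 stood at 129, 219 and 168 CPM, and Fscn1, the actin bundler of migratory dendritic cells, was found unthinned in 0 of 68, 0 of 109 and 1 of 154 members. A count of 0 allows, as 3 counts, up to 4.41% of members with a UMI in Sham and 2.75% in MI. B cells, which use Ccr7 themselves, had it in 49.8%, 39% and 32.8% of thinned cells, and members in 10.7%, 20.2% and 17.5%.

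Among trafficking receptors, 3 of 10 measured were higher in MI than in Sham and none lower, with a median of 0.74, and 5 of 10 were higher in MI-E than in Sham, with a median of 0.98. Of all genes, 12.8% were higher in each comparison, with medians of 0.24 and 0.26. Ccr1, a receptor for inflammatory chemokines, stood at 83.9, 150.1 and 186 CPM against 34.7, 58.5 and 114 CPM in B cells. Ccr2, which draws monocytes and some dendritic cells out of the marrow, stood at 138, 208 and 159.5 CPM. Thinned members carried a Ccr2 UMI in 17.9%, 28.4% and 16.9% of cells, and B cells in 0.187%, 2.44% and 3.06%. Outside that list, the integrin chain Itgax (CD11c) was 2.43-fold (1.59 to 3.84) higher in MI than in Sham, at 59, 143 and 105 CPM.

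Cytokines and their receptors were heterogeneous. Il1r2, the decoy receptor that binds interleukin-1 without signalling, stood at 127 CPM (Sham), 352 CPM (MI) and 567 CPM (MI-E), which is 2.77-fold (2.08 to 3.74) higher in MI than in Sham and 1.61-fold (1.42 to 1.83) higher again in MI-E. It was found in 16.1%, 40.4% and 41.6% of thinned members and in 2.06%, 4.88% and 7.42% of thinned B cells, and neutrophils carried 1664, 787 and 1493 CPM. Il1b, the cytokine it binds, was abundant at 2344, 3468 and 3388 CPM and found in 64.3%, 77.1% and 83.1% of thinned members against 4.21%, 19.5% and 26.6% of B cells. Areg (amphiregulin), a ligand of the EGF receptor, was highest in MI at 70.3, 244 and 68.5 CPM, 3.47-fold (2.38 to 5.22) above Sham and 3.57-fold (2.82 to 4.54) above MI-E. Tnf was lowest in MI at 77.1, 24.2 and 95.8 CPM, where B cells held 69.4 CPM. Ebi3, a subunit shared by interleukins 27 and 35, stood at 59, 21.3 and 17.1 CPM. Of 14 chemokines measured, 4 were higher and 1 lower in MI-E than in MI, where 1.61% of all genes were higher and 1.33% lower. The lower one, Ccl22, stood at 38.6, 53.3 and 19.9 CPM with 43.6% of its MI UMIs in 1 cell. The 4 higher ones all lay below the B cell level of MI-E. Cxcl2, among them, stood at 959.7, 1604 and 3465 CPM against 2016, 7368 and 8126 CPM in B cells.

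Of 24 transcription factors and growth factor receptors of dendritic cells, 1 was higher and 4 lower in MI than in Sham, where 12.8% of all genes were higher and 3.95% lower. None was 2-fold apart between MI-E and MI, and 3 were higher and 2 lower in MI-E than in Sham. The medians of the 3 comparisons were -0.22, 0.18 and -0.16, against 0.24, 0.03 and 0.26 for all genes. Besides Batf, Klf2, a factor of cell quiescence, was lower at 136, 47.5 and 46.6 CPM, under the B cell levels of 1225, 402 and 576 CPM, and Etv3, a repressor of the Ets family, at 515, 248 and 261 CPM. Spi1 (PU.1), the master regulator of myeloid cells, stood at 429, 429 and 561 CPM, Irf4, which type 2 cells need, at 20.4, 36.8 and 29.4 CPM, and Csf2rb, the common chain of the GM-CSF receptor, at 206, 214 and 241 CPM. Runx3 reached 275 CPM in MI-E from 123 in Sham, above the B cell level of 92. Tnip3, an inhibitor of NF-kB signalling and one of the label markers, lay outside this list and stood at 522, 159 and 101 CPM. It was found in 46.4%, 17.4% and 13.6% of thinned members.

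Proliferation genes were carried by few members. Of 10 measured, 5 were higher in MI than in Sham and none lower, with a median of 0.96, and 6 were lower in MI-E than in MI and none higher, with a median of -1.17. Among all genes 12.8% were higher in MI than in Sham and 1.33% lower in MI-E than in MI. Their medians were 0.24 and 0.03. Pclaf, which loads onto the replication clamp, was at 27.2 CPM (Sham), 149 CPM (MI) and 40.4 CPM (MI-E) and in 2.94%, 11% and 3.9% of members, with 19.5% of its MI UMIs in 1 cell. Stmn1, a microtubule regulator of dividing cells, stood at 132, 292 and 98.6 CPM, and 1 cell gave 50% of the Sham UMIs. Hist1h2ap, a replication histone, stood at 36.3, 105 and 23.3 CPM and in B cells at 43.1, 164 and 12.5 CPM. Only 2 of the 6 genes lower in MI-E had exceeded the B cell level in MI. After thinning, Mki67 was found in 3.57%, 6.42% and 2.6% of members. In the 55, 43 and 19 members without a UMI of Fcgr1 or Ly6c2 the direction between MI-E and MI turned, to a median of 0.98. That value rests on 19 MI-E cells. Over all MI-E members, 1 cell gave 52.9% of the Hist1h2ap UMIs, 30.5% of those of Pclaf and 29.9% of those of Stmn1.

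Other genes of the MI-E to MI comparison lay outside these lists. Neat1, a long noncoding RNA of nuclear paraspeckles, stood at 249.6 CPM (Sham), 149 CPM (MI) and 408 CPM (MI-E), and type 1 dendritic cells and B cells showed the same order, at 154, 149.9 and 334 CPM and 145, 109.6 and 211 CPM. Ms4a6b, a membrane protein of the Ms4a family, was 2.2-fold (1.84 to 2.65) higher in MI-E and above B cells there, 342 against 163 CPM. In MI and MI-E, Cd209a-negative cells held it at 278 and 389 CPM and C1q macrophages at 280 and 379 CPM. Trib1, a pseudokinase of myeloid differentiation, was 2.04-fold (1.56 to 2.68) higher. Hilpda, a lipid droplet protein induced by hypoxia, peaked in MI at 111, 421 and 180 CPM, and Rgcc, a cell cycle regulator, likewise at 123, 329 and 147 CPM. Both peaked in MI in neighbouring populations too. C1q macrophages held Hilpda at 77.1, 403 and 240 CPM and Rgcc at 51.4, 242 and 148 CPM. Cd209a-negative cells held them at 130, 431 and 206 CPM and at 115, 237 and 172 CPM. Pltp, the phospholipid transfer protein, was 2.26-fold (1.83 to 2.8) lower in MI-E than in MI, and Pxdc1 2.68-fold (1.99 to 3.66). Spp1 (osteopontin) reached 631 CPM in MI-E, but 27.7% of those UMIs came from 1 cell and B cells held 2256 CPM. Of 15 lipid-handling genes, 7 were higher in MI-E than in Sham, against 12.8% of all genes. None of the 7 exceeded its B cell level in MI-E.

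**Figure D5:**
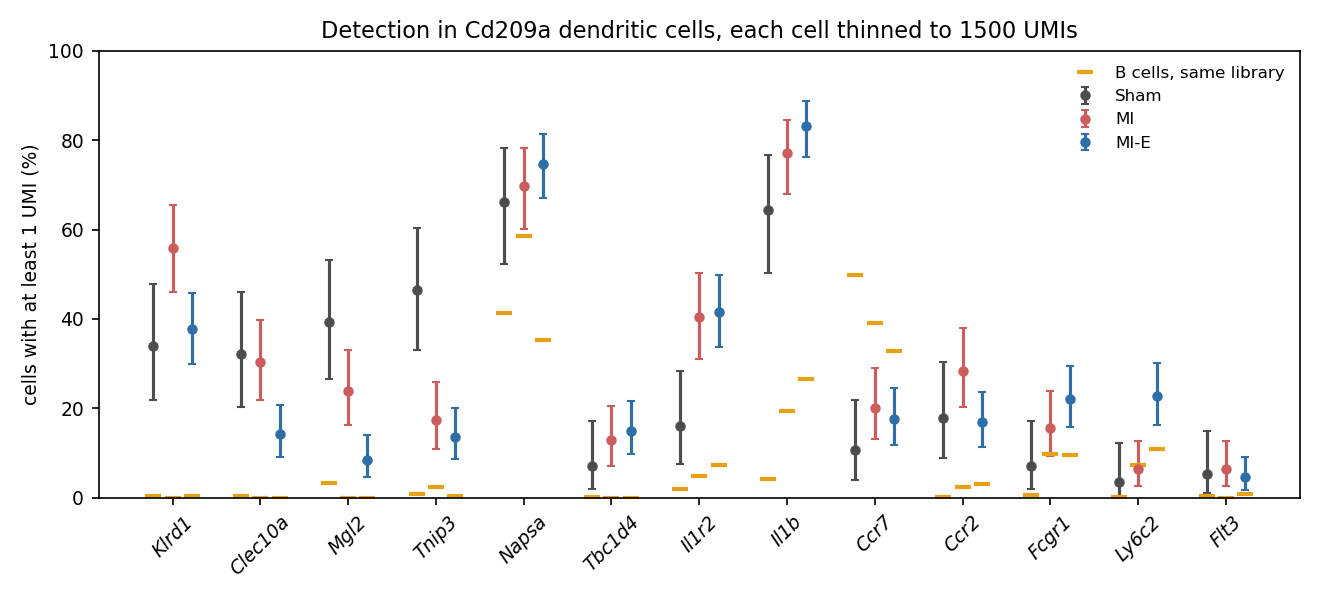
Share of Cd209a dendritic cells with at least 1 UMI of each gene after every cell was thinned to 1500 UMIs (56, 109 and 154 cells in Sham, MI and MI-E); bars are exact 95% binomial intervals and orange dashes give B cells of the same library. Mgl2 and Tnip3 are found most often in Sham, Il1r2 least often, and Fcgr1 and Ly6c2 most often in MI-E.

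Finally, members were divided by genes of conventional dendritic cells and of monocytes. A UMI of Flt3 or Zbtb46 was found in 10.7%, 9.17% and 6.49% of thinned members in Sham, MI and MI-E (unthinned, 30.9%, 31.2% and 29.9%). A UMI of Fcgr1 or Ly6c2 was found in 10.7% (4.04 to 21.9), 21.1% (13.9 to 30) and 39% (31.2 to 47.1) of thinned members (unthinned, 19.1%, 60.6% and 87.7%). These intervals cover counting error within 1 library per group, and both genes were chosen after seeing the data. Ly6c2, the surface antigen of classical monocytes, was found in 3.57%, 6.42% and 22.7% of members against 0.28%, 7.32% and 10.9% of B cells. Fcgr1 (CD64), a high-affinity receptor for antibody, was at 7.14%, 15.6% and 22.1%, with 0.654%, 9.76% and 9.61% in B cells. Both kinds of gene were found together in 1, 2 and 4 thinned members and in 4, 16 and 41 members unthinned, so in MI-E 41 of the 46 members with a UMI of Flt3 or Zbtb46 also had one of Fcgr1 or Ly6c2, as had 135 of all 154. Among all genes, 12.8% were at least 2-fold higher in MI than in Sham and 12.8% in MI-E than in Sham. Of 10 monocyte markers measured, 6 were higher in MI than in Sham and 7 in MI-E than in Sham, but only 2 of each exceeded the B cell level of the higher library. Plac8, one of these, stood at 279, 1105 and 2022 CPM against 701, 1059 and 1060.2 CPM, and Ms4a4c, the other, at 113, 231 and 628 CPM against 78.6, 87.7 and 196 CPM. Within MI, the 66 members with a UMI of Fcgr1 or Ly6c2 held 619.7 CPM of Klrd1 and 246 CPM of Clec10a, and the 43 without held 663 and 416 CPM. In Sham the 13 members with such a UMI held 167 and 226 CPM and the 55 without 311 and 272 CPM. In MI-E the 135 with held 431 and 145 CPM and the 19 without 473 and 162 CPM. Klrd1 and Clec10a were thus present on both sides, and lower in members with such a UMI.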

How the data were processed

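Leukocytes of 3 heart libraries (Sham, MI and MI-E, 1 each) were deposited by the authors as raw UMI counts per gene and cell barcode. Cell Ranger 5.0.1 and the mm10 build were used, per the submitters' processing notes. Cells under 200 genes or over 10% mitochondrial UMIs were dropped, and the rule was applied to raw counts. Members' UMIs were summed per library and scaled to CPM. Genes were measured where the mean over libraries reached 25 CPM, the 13 genes of the rule left out, and counted as higher or lower at 2-fold or more. Log2 ratios used CPM + 1, and a library at 0 was set to 3 counts. Ratios carry exact Poisson and shares exact Clopper-Pearson 95% intervals, which cover counting error only. No test was possible with 1 library per group.

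Neighbouring populations were gated in every library, leaving out the genes that set a gate. Detection was read after thinning to 1500 UMIs. B cells (at least 2 UMIs of Cd79a) served as background for myeloid genes, and only 41 B cells of MI entered after thinning. Doublets were called with Scrublet in scanpy 1.11.5 and kept. In MI its automatic threshold marked none, and the expected rate set the number there. TMM factors came from edgeR 4.0.16 in R 4.3.3, with python 3.11.15, numpy 2.4.6, scipy 1.17.1 and pandas 2.3.3. The calculation of ratios and calls was tested on simulated data. Genes named were the 10 highest and 10 lowest ratios for MI over Sham and MI-E over MI and the 5 highest and lowest for MI-E over Sham, with at least 100 CPM and detection in at least 10% of members in the higher library. Mitochondrial, ribosomal, haemoglobin, immunoglobulin, receptor and predicted genes, rule genes, other cell types' markers and genes under 10% of the level in monocytes, macrophages, B cells or neutrophils were passed over. The 8 leading genes per neighbour and members of the 24 lists could be named too. Members and lists were chosen with earlier results of these data known. Gene coordinates are from GENCODE on GRCm38. Some planned items are not reported here, and the division of members by monocyte genes, made with Fcgr1 and Ly6c2, was chosen after seeing the data.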

Additional observations from a re-analysis of the deposited data

How the results depend on the processing

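Shares of kept cells moved with the rule and the depth. With at least 2 Cd209a UMIs they were 0.459%, 0.827% and 0.977% in Sham, MI and MI-E, and with at most 1 C1q UMI MI-E stood at 0.823% and its ratio to MI at 0.781. Of MHC class II cells, with B cells and macrophages not left out, they were 1.06%, 10.5% and 11%, ratios to Sham of 9.89 and 10.4. Thinned to 1500 UMIs, MI and MI-E stood at 0.615% and 0.626%, ratios to Sham of 1.10 and 1.12. Thinned to 1000, they stood at 0.451% and 0.484%, and the ratios to Sham turned to 0.775 and 0.832. Counts of genes 2-fold apart between MI-E and MI were 89 higher with at least 2 Cd209a UMIs, 87 higher and 87 lower with at most 1 C1q UMI, and 162 and 95 in members chosen after thinning. Some alternatives were chosen after seeing the data. In members without UMIs of Fcgr1 and Ly6c2 the counts were 249 and 259, with 290 lower between MI-E and Sham, and in those without Ccr7 and Fscn1 116 and 89. In the former, with 19 members in MI-E, log2 ratios of MI-E to MI turned for the proliferation list (0.98), Hist1h2ap (2.94), Pclaf (0.92) and Stmn1 (1.03). TMM scaling gave 219 genes lower between MI and Sham, and the mean of each cell's CPM 259, with 225 between MI-E and Sham. With CPM + 10, 279 genes were higher in MI than in Sham, 29 higher and 26 lower in MI-E than in MI, and 293 higher in MI-E than in Sham. At 100 CPM the pairs for MI over Sham, MI-E over MI and MI-E over Sham were 92 and 33, 15 and 12, and 91 and 39. Without a filter they were 1563 and 1352, 1034 and 1048, and 1583 and 1325. Against C1q macrophages, type 1 dendritic cells, monocytes and Cd209a-negative cells, the counts higher and lower at 100 CPM were 26 and 69, 50 and 24, 31 and 89, and 3 and 17. Without a filter they were 242 and 380, 230 and 195, 246 and 425, and 33 and 107. Leaving out each library gave 92 to 100 and 207 to 231, 201 to 214 and 121 to 175, 96 to 191 and 262 to 378, and 11 to 17 and 59 to 80. The interleukin-1 receptor list, with 1 gene at 25 CPM, turned to -0.20 between MI-E and Sham at 5 CPM. Removing predicted doublets kept every count of genes 2-fold apart within 1.5 times. No paired analysis was possible because each group has 1 library. With 68 members in Sham, counting error is widest there.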

Other observations

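Genes of energy metabolism were at least 2-fold higher in MI than in Sham about as often as all genes measured in Cd209a dendritic cells, of which 12.8% were. Of 20 genes of oxidative phosphorylation, 2 were higher and none lower, with a median log2 ratio of 0.49 against 0.24 for all genes. Ndufc1, a subunit of complex I, stood at 99.8 CPM (Sham), 258 CPM (MI) and 211 CPM (MI-E), and Cox5a, a subunit of complex IV, at 322, 693 and 625 CPM. Of 15 genes of glycolysis and hypoxia, 2 were higher in MI than in Sham, with a median of 0.47. Pgam1, a glycolytic mutase, stood at 182, 375 and 326 CPM, and Vegfa, the vascular growth factor, at 34, 66.8 and 69.8 CPM. Receptors for antibody differed by member. The inhibitory receptor Fcgr2b stood at 256, 159 and 71.2 CPM and Fcgr3 at 88.5, 37.8 and 36.3 CPM, lower in MI-E than in Sham, while Fcgr4 stood at 6.81, 30 and 39.7 CPM.

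Adhesion genes lay on both sides. Icam1, a ligand of leukocyte integrins, stood at 159 CPM (Sham), 63 CPM (MI) and 89 CPM (MI-E), and Adgre5 (CD97) at 170.2, 58.1 and 52 CPM. Klrk1 (NKG2D), a receptor for stress ligands, stood at 40.8, 63.9 and 126 CPM. Of 20 genes induced by tissue dissociation, 1 was higher and 3 lower in MI than in Sham, against 12.8% and 3.95% of all genes. Hspa1b, a heat shock protein, stood at 163, 39.7 and 76 CPM, and Egr1, an immediate early gene, at 118, 32.9 and 67.1 CPM, with 48.1% of the Sham UMIs in 1 cell. The part of dissociation in the differences between libraries was not tested. S100a1 stood at 68.1, 19.4 and 16.4 CPM.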
